A study of Mus musculus with 6 samples.

Results

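The insulin-like growth factor (IGF) system was followed in mouse optic nerve through 10 genes, the 2 ligands Igf1 and Igf2, the receptors Igf1r and Igf2r, and the binding proteins Igfbp2 to Igfbp7. The genes were taken by name from a table of 35850 genes, after repeated lines of a transcript were dropped and the transcripts of each gene were summed. Poly(A) RNA from the nerves of 6-week-old mice was sequenced in 6 bulk libraries, to ask what exposure to an obesogenic diet does to gene expression there. The obesogenic group had 3 libraries from mice labelled with an AIN-76A formula with sucrose that drew 58% of its energy from fat, and the title of the series calls the exposure maternal. The control group had 3 libraries from mice labelled with PicoLab 5053. All 6 libraries came from the same genotype, GFAP-Cre with 1 floxed and 1 R681X allele of Nf1, so the control mice carried the tumour-prone genotype too. Nf1 encodes neurofibromin, which turns RAS off, and the GFAP promoter that drives Cre is active in astrocytes and in glial progenitors. The labels do not tell libraries from separate animals or litters, so p-values reflect only how far these samples spread, and that spread may be technical.

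IGF1 and IGF2 are small secreted proteins related to insulin. Both signal for growth and survival through the tyrosine kinase receptor encoded by Igf1r, while the receptor encoded by Igf2r takes IGF2 to the lysosome for degradation and also carries enzymes tagged with mannose 6-phosphate. The binding proteins hold IGFs in tissue fluid and release them when proteases cut them. In adult rodent brain, Igf2 is known from the leptomeninges, the choroid plexus and blood vessels, and Igf1 from microglia, some neurons and vessel-associated cells. Igf2 is imprinted and is read mainly from the paternal allele, except in leptomeninges and choroid plexus, where both alleles are active.

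Values are given as TPM, in which the reads of a transcript are divided by its length and each library is scaled to 1 total, and they cover only the transcripts listed in the table. Libraries summed to between 788456 and 832193 listed TPM, and had between 13824 and 14514 genes at 1 TPM or more. The sequencing depth cannot be read from TPM and is unknown here. Obesogenic library 2 stood apart, with 20.6% of its listed TPM on immunoglobulin genes, against at most 0.0439% in the others. Obesogenic libraries 1 and 3 stood apart as well, with 7736 and 6480 TPM over 7 hypothalamic neuropeptide genes, against 1276 TPM in obesogenic library 2 and between 412 and 2192 TPM in the control libraries. Differences were tested with limma on log2(TPM + 1) as obesogenic minus control over 14364 genes, with Benjamini-Hochberg adjustment and a threshold of 0.05. Nf1 itself had 2.71, 1.55 and 2.92 TPM in obesogenic libraries 1 to 3 and 3.67, 3.09 and 4.28 TPM in control libraries 1 to 3, a log2 difference of -0.48 with a standard error of 0.32 (adjusted p = 0.647). Both groups carry the same Nf1 alleles, so that value does not check the diet labels.

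Most of the IGF system was lower in the obesogenic libraries, led by Igf2. Igf2 averaged 132 ± 8.55 TPM in the obesogenic and 548 ± 157 TPM in the control libraries (SD, n = 3 each), a ratio of 0.242. Of the 10 genes, 9 could be tested, and the fitted difference was negative in 8 and positive in 1, Igfbp3, though that of Igf1r was 0.0015 after rescaling without immunoglobulin genes. The median of the 9 was -0.75, against 0.08 over all genes tested, of which 42.3% had a negative difference. None of the 9 passed the threshold with limma, and 3 of them, Igf2, Igfbp2 and Igfbp6, had an unadjusted p under 0.05. Over all genes tested, 0.00696% passed the threshold, which is 1 gene, and 11.0% had an unadjusted p under 0.05. In the same 3 genes the highest obesogenic library lay below the lowest control library, and 7.45% of all genes tested showed that separation. In bulk tissue, fewer cells of a type and less RNA per cell cannot be told apart.

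**Figure D1:**
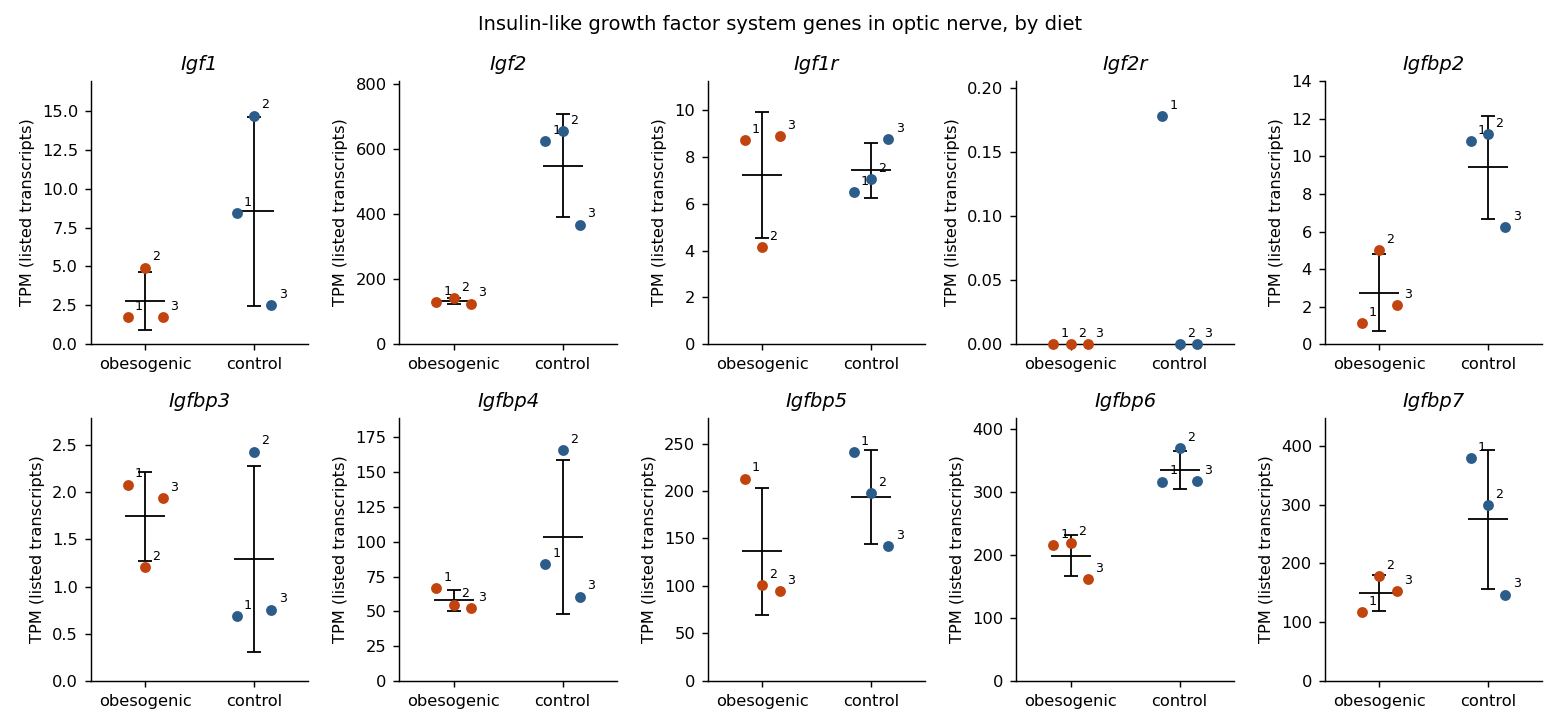
TPM of each of the 10 genes, summed over listed transcripts, in obesogenic (left) and control (right) libraries, numbered 1 to 3; bars give the mean and SD where no library of the group is listed at 0, and each panel has its own linear axis from 0. The points of the 2 diets do not overlap in Igf2, Igfbp2 and Igfbp6, and Igf2r is at or near 0 throughout.

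The promoters of Igf2 are shown because Igf2 had the largest difference of the system over all 6 libraries and its transcripts open at several places. RefSeq gives 4 starts of Igf2 on the minus strand of chromosome 7 in build GRCm38.p6, and the 250 bases before the starts used by the coding transcripts Igf2-203 and Igf2-202 are given. Igf2-203 opens exactly at start 1, which chr7:142666817-142667066 precedes, and Igf2-202 opens 30 bases from start 4, which chr7:142657497-142657746 precedes. Capitals mark the motifs found on either strand.
Igf2 start 1: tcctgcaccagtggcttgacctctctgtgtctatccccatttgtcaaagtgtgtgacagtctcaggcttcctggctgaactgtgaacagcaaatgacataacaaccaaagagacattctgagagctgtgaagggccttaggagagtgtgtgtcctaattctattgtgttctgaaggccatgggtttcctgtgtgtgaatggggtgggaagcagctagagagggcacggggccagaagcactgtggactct
Igf2 start 4: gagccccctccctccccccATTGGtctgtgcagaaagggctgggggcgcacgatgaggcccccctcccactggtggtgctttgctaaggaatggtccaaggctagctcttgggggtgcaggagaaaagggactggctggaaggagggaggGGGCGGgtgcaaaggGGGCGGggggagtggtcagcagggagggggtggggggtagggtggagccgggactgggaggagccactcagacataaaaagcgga

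Motifs were searched in these windows on both strands by their letters. The TATA box was searched with the letters TATAAA, which 12.4% of 32817 RefSeq promoter windows of this length held. The CCAAT box was searched by the letters of its name, found in 33.8% of the windows, and the GC box with the letters GGGCGG, found in 32.7%. A site bound by FOXO factors was searched with the letters TGTTTAC, found in 3.16%. The window before start 1 held none of the 4 motifs, had 50.8% G and C and 1 CpG. The window before start 4 held a CCAAT box on the opposite strand, 231 bases before the start, and 2 GC boxes 100 and 85 bases before it, and had 66% G and C and 6 CpG. No match overlapped another. The 2 windows thus differ in base composition. The transcripts that open beside them shared 1 pattern between diets, given with the Igf2 transcripts, though their values are not separate because they share exons.

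Igf2, the ligand that both receptors bind, had 130, 142 and 125 TPM in obesogenic libraries 1 to 3 and 623, 654 and 367 TPM in control libraries 1 to 3. The obesogenic libraries lay close together and all below the lowest control library, control 3. The log2 difference was -2.00 with a standard error of 0.25, and the gene was lower in 3 of 3 obesogenic libraries (unadjusted p = 7.81e-05, adjusted p = 0.119 with limma). By unadjusted p, Igf2 was the 7th of 14364 genes, and it had the 32nd lowest log2 difference. Among all genes of a library ordered by TPM, it ranked between 100th and 1139th.

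Leaving out obesogenic library 2, the library with immunoglobulin RNA, changed the call. Igf2 then had a log2 difference of -2.05 with a standard error of 0.27 and an adjusted p of 0.0199, and Igfbp2 and Igfbp6 also passed, with -1.98 (adjusted p = 0.0326) and -0.83 (adjusted p = 0.046). Those 3 of the 9 tested genes fell in that comparison of 2 against 3 libraries, in which 1.25% of all genes tested passed in that direction. With obesogenic library 2 as the only obesogenic library, the Igf2 difference was -1.90 with a standard error of 0.36 (adjusted p = 0.0744 with limma); that fit rests on 1 library, assumed to vary like the controls, and was added after the data were seen. The Igf2 difference thus had nearly the same size with and without each library that stood apart.

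**Figure D2:**
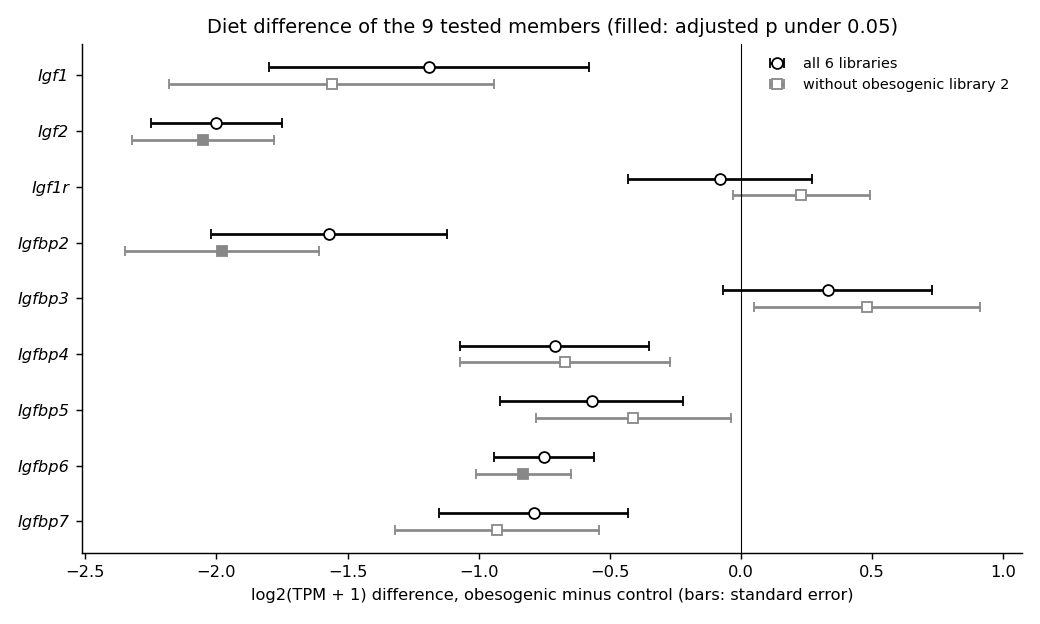
Difference in log2(TPM + 1), obesogenic minus control, of the 9 tested genes with its standard error, from all 6 libraries (black circles) and without obesogenic library 2 (grey squares); filled symbols have an adjusted p under 0.05 in limma. Igf2 lies at -2.00 and -2.05, and the filled squares are Igf2, Igfbp2 and Igfbp6.

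The table lists 8 of the 9 Igf2 transcripts in GENCODE release M21, and 6 of them could be tested. All 6 were lower with no overlap between diets, as were 6.11% of the 35408 transcripts tested. Igf2-209 reached 1 TPM in the control libraries alone, so the filter set its direction in advance. The 6 belong to 1 gene and share exons, so they are not separate results. In limma each of the 6 was lower with an unadjusted p under 0.05, as were 3.84% of all transcripts tested. None had an adjusted p under 0.05, which 0.00565% of all transcripts tested had. Igf2-203, the most abundant, had 68.4, 75.7 and 66.6 TPM in obesogenic libraries 1 to 3 and 338, 375 and 190 TPM in control libraries 1 to 3. Its log2 difference was -2.03 with a standard error of 0.28 (adjusted p = 0.152 with limma). Igf2-202, which opens at start 4, had 17.0, 14.2 and 17.4 TPM in the obesogenic and 78.2, 74.3 and 51.9 TPM in the control libraries. Its log2 difference was -1.99 with a standard error of 0.23 (adjusted p = 0.126 with limma). The listed transcripts beside the CpG-poor start 1 and the GC-rich start 4, printed above, differed between diets by about the same factor. Reads in shared exons are divided between them, so this gives no separate measure of the 2 starts. The coding transcript Igf2-201, which opens exactly at start 4, was not analysed here, so the start 4 level and the Igf2 total may be incomplete.

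Igf2-208, annotated as a processed transcript with no coding sequence, had 35.1, 44.3 and 33.1 TPM in the obesogenic and 176, 166 and 102 TPM in the control libraries. The coding transcript Igf2-205 had 7.37, 6.64 and 7.42 TPM in the obesogenic and 23.2, 29.1 and 14.9 TPM in the control libraries. Both opened more than 100 bases from any RefSeq start. Igf2-209, a low coding transcript, was listed at 0 in all 3 obesogenic libraries and had 1.44, 2.95 and 1.22 TPM in the control libraries. Igf2-206, a retained intron, had 2.11 and 0.811 TPM in obesogenic libraries 1 and 2 and was listed at 0 in obesogenic library 3, against 4.35, 3.22 and 6.63 TPM in the control libraries. Shared exons mean that these values depend on how reads were assigned between transcripts, and an antisense gene, Igf2os, overlaps the first exon of Igf2-204, while the strand setting of the counting is not given in the sources used here.

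As a share of all listed Igf2, the main transcripts made up similar parts in both diets. Igf2-203 made up 53.0% ± 0.492 in the obesogenic and 54.4% ± 2.81 in the control libraries (SD, n = 3 each). Igf2-208 made up 28.2% ± 2.65 in the obesogenic and 27.2% ± 1.59 in the control libraries. Igf2-202 made up 12.3% ± 2.04 in the obesogenic and 12.7% ± 1.39 in the control libraries. These shares overlapped between diets. The share of Igf2-205 did not, with 5.42% ± 0.657 in the obesogenic and 4.08% ± 0.358 in the control libraries. Shares were given no test.

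**Figure D3:**
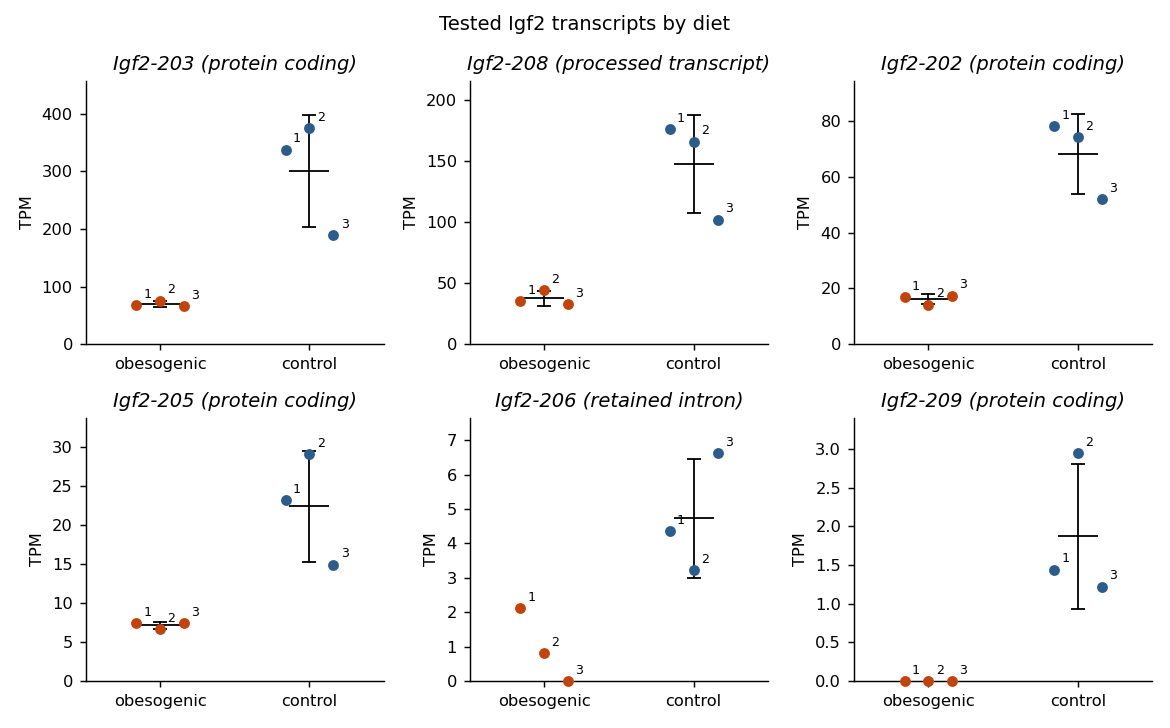
TPM of the 6 tested Igf2 transcripts in obesogenic (left) and control (right) libraries, numbered 1 to 3, with the mean and SD of each group where no library is listed at 0; each panel has its own linear axis from 0. In every panel the obesogenic points lie below the control points, and Igf2-209 is listed at 0 in the 3 obesogenic libraries.

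Igf1, the ligand that growth hormone induces in liver, was a small part of the ligand RNA listed. It had 1.72, 4.92 and 1.72 TPM in obesogenic libraries 1 to 3 and 8.41, 14.7 and 2.51 TPM in control libraries 1 to 3. Obesogenic library 2 lay above control library 3, so the groups overlapped, and control libraries 2 and 3 were further apart than the group means. The log2 difference was -1.19 with a standard error of 0.61 (adjusted p = 0.524 with limma), and it was -0.71 without control library 2 and -1.79 without control library 3. Igf2 made up 98.7%, 96.6% and 98.6% of the summed ligand TPM in the obesogenic and 98.7%, 97.8% and 99.3% in the control libraries, which overlap. Of the 8 annotated Igf1 transcripts 6 were listed, and Igf1-203 carried all of the listed Igf1 in the obesogenic libraries. Igf1-204 was listed at 0 in the obesogenic libraries and had 0.473, 0.776 and 0.671 TPM in the control libraries, and Igf1-205 was above 0 in control library 2 alone, at 5.07 TPM. The transcripts Igf1-201 and Igf1-202 were not analysed here, so the Igf1 level may be incomplete.

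Igf1r, the receptor for both ligands, had 8.70, 4.14 and 8.88 TPM in obesogenic libraries 1 to 3 and 6.5, 7.05 and 8.75 TPM in control libraries 1 to 3. Obesogenic library 2 was the lowest of the 6 and the other obesogenic libraries lay near or above the highest control library. The log2 difference was -0.08 with a standard error of 0.35 (adjusted p = 0.949 with limma), and it was 0.23 without obesogenic library 2. All 6 annotated Igf1r transcripts were listed. The single coding one, Igf1r-201, had 5.71, 3.35 and 4.02 TPM in the obesogenic and 4.83, 5.72 and 6.05 TPM in the control libraries. The remaining Igf1r TPM lay on 5 retained introns, of which Igf1r-206 had 1.61 and 2.73 TPM in obesogenic libraries 1 and 3 and 1.22 TPM in control library 3 and was listed at 0 in the others. The groups overlapped for Igf1r-201 and for Igf1r-206.

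Igf2r, the IGF2 clearance receptor, could not be assessed. The table lists 2 of its 3 annotated transcripts, both processed transcripts, and the coding transcript was not analysed here. They were listed at 0 in all 3 obesogenic libraries and in control libraries 2 and 3, and summed to 0.178 TPM in control library 1.

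Among the binding proteins, Igfbp6, which prefers IGF2 to IGF1, had the highest mean in both diets. It had 216, 220 and 162 TPM in obesogenic libraries 1 to 3 and 317, 370 and 318 TPM in control libraries 1 to 3, all on 1 coding transcript. The groups did not overlap, and the log2 difference was -0.75 with a standard error of 0.19 (unadjusted p = 0.00533, adjusted p = 0.272 with limma). Igfbp7, a weak IGF binder found in vessel walls, had 117, 178 and 153 TPM in the obesogenic and 380, 299 and 147 TPM in the control libraries. Control library 3 lay below 2 of the obesogenic libraries, and the log2 difference was -0.79 with a standard error of 0.36 (adjusted p = 0.484 with limma). It was -0.50 without control library 1 and -1.19 without control library 3.

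Igfbp5, which binds extracellular matrix, had 213, 101 and 94.9 TPM in obesogenic libraries 1 to 3 and 241, 198 and 142 TPM in control libraries 1 to 3. Obesogenic library 1 lay among the control libraries and the other obesogenic libraries lay below all of them. The log2 difference was -0.57 with a standard error of 0.35 (adjusted p = 0.609 with limma), with -0.94 when obesogenic library 1 was left out and -0.36 when obesogenic library 3 was. Igfbp4, the substrate of the protease PAPP-A, had 66.6, 54.8 and 52.2 TPM in the obesogenic and 83.7, 166 and 60.6 TPM in the control libraries. The groups overlapped between obesogenic library 1 and control library 3, and the log2 difference was -0.71 with a standard error of 0.36 (adjusted p = 0.519 with limma) and -0.30 without control library 2. Nearly all of the listed Igfbp4 lay on the processed transcript Igfbp4-203, with 55.7 ± 8.38 TPM in the obesogenic and 99.5 ± 54.6 TPM in the control libraries (SD, n = 3 each). The coding transcript Igfbp4-201 was not analysed here.

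Igfbp2, which is high in fetal brain and in astrocytes, was low in the listed values and had 1.14, 5.03 and 2.09 TPM in obesogenic libraries 1 to 3 and 10.8, 11.2 and 6.24 TPM in control libraries 1 to 3. The groups did not overlap, with obesogenic library 2 closest to the controls. The log2 difference was -1.57 with a standard error of 0.45 (unadjusted p = 0.0101, adjusted p = 0.327 with limma). Most of this RNA lay on the retained intron Igfbp2-203, whose groups overlapped. The coding transcript Igfbp2-202 had 0.371 TPM in obesogenic library 1, was listed at 0 in obesogenic libraries 2 and 3, and had 1.83, 1.27 and 1.99 TPM in the control libraries. The other coding transcript, Igfbp2-201, was not analysed here.

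Igfbp3, the main IGF carrier in blood, had the lowest group means of the tested genes over its listed RNA, though Igf1 lay below it in obesogenic libraries 1 and 3 and Igfbp2 in obesogenic library 1. It was the only one with a positive difference. It had 2.08, 1.21 and 1.94 TPM in obesogenic libraries 1 to 3 and 0.684, 2.43 and 0.755 TPM in control libraries 1 to 3, on the transcript Igfbp3-202. The other coding transcript, Igfbp3-201, was not analysed here, so the level is partial. Control library 2 was the highest of the 6, so the groups overlapped, and the log2 difference was 0.33 with a standard error of 0.40 (adjusted p = 0.811 with limma). It was 0.66 without control library 2, 0.15 without control library 1 and 0.18 without control library 3.

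The order of the levels differed between diets at its upper end. In each control library Igf2 was the highest of the 10 genes, though its lowest library, at 367 TPM, reached the Igfbp6 range of 317 to 370 TPM. In each obesogenic library Igf2 lay below Igfbp6, and its 125 to 142 TPM fell inside the Igfbp7 range of 117 to 178 TPM and the Igfbp5 range of 94.9 to 213 TPM. Igfbp4 came next in both diets by its mean. The low end held Igf1, Igf1r, Igfbp2 and Igfbp3, whose means were at most 7.24 TPM in the obesogenic and 9.42 TPM in the control libraries. TPM is per length, so levels can be compared between genes as far as their transcripts are listed.

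Igfbp5, Igfbp6 and Igfbp7, whose coding transcripts are all listed, summed to 547, 499 and 411 TPM in obesogenic libraries 1 to 3 and 938, 867 and 606 TPM in control libraries 1 to 3. Igf2 divided by that sum was 0.238, 0.284 and 0.305 in the obesogenic and 0.664, 0.754 and 0.606 in the control libraries, so Igf2 was lower also relative to the binding proteins of the same library. Within the 3, the share of Igfbp6 was 39.6%, 44.1% and 39.5% in the obesogenic and 33.7%, 42.7% and 52.4% in the control libraries, which overlap. These ratios were given no test.

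Markers of the cells that enclose the nerve and line its vessels were mostly lower in the obesogenic libraries, as Igf2 was. All 14 leptomeningeal fibroblast markers were tested and all had a negative difference, with a median of -1.35; 12 did not overlap between diets, and in limma all 14 had an unadjusted p under 0.05 and none passed the threshold. Their summed level ran between 715 and 899 TPM in the obesogenic and between 1862 and 2602 TPM in the control libraries. Pericyte and smooth muscle markers summed to between 414 and 430 TPM in the obesogenic and between 772 and 1190 TPM in the control libraries, with all 9 tested lower and Pdgfrb listed at 0 in every library. Of 12 endothelial markers 11 were lower, and their sums ran between 220 and 292 TPM in the obesogenic and between 288 and 559 TPM in the control libraries. Of 5 tested choroid plexus markers 4 were lower, 2 of them, Kcnj13 and Kl, without overlap, and Clic6 was higher with overlap. The choroid plexus list summed to between 45.0 and 63.8 TPM in the obesogenic and between 115 and 158 TPM in the control libraries. Ttr, the most abundant secreted product of choroid plexus, had between 1.05 and 2.10 TPM in the obesogenic and between 0.913 and 6.31 TPM in the control libraries, which overlap. The part of these cells in the Igf2 difference was not tested.

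Set against these markers, the members differed in direction. Igf2 per 100 TPM of leptomeningeal fibroblast markers was 14.5, 16 and 17.5 TPM in obesogenic libraries 1 to 3 and 23.9, 27.1 and 19.7 TPM in control libraries 1 to 3. Igfbp6 per 100 TPM of the same markers was 24.1, 24.9 and 22.7 TPM in the obesogenic and 12.2, 15.3 and 17.1 TPM in the control libraries. Over the summed markers neither ratio overlapped between diets, the Igf2 ratio being lower and the Igfbp6 ratio higher in the obesogenic libraries. This depended on the markers used. Obesogenic library 2 had 142 TPM of Igf2 beside 123 TPM of Fmod, and control library 3 had 367 TPM beside 330 TPM. The ratio of Igf2 to Fmod alone thus overlapped, a marker looked at after the data were seen. Obesogenic library 2 had 220 TPM of Igfbp6 beside 57.6 TPM of Dcn, and control library 3 had 318 TPM beside 55.4 TPM. The ratio of Igfbp6 to Dcn alone thus overlapped too, a marker also looked at after the data were seen. The ratio of Igfbp5 to the summed leptomeningeal fibroblast markers was also higher without overlap. It was 23.7, 11.4 and 13.3 TPM per 100 in the obesogenic and 9.26, 8.18 and 7.61 TPM per 100 in the control libraries. Set against Dcn alone the Igfbp5 ratio overlapped, with 101 TPM of Igfbp5 in obesogenic library 2 and 142 TPM in control library 3. The ratio of Igfbp7 to 100 TPM of endothelial markers overlapped, at 53.2, 78.7 and 52.6 TPM in the obesogenic and 68.1, 64.2 and 51.0 TPM in the control libraries.

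Igf1 was set against immune cells. Per 100 TPM of 10 microglia markers it was 0.244, 0.128 and 0.268 TPM in the obesogenic and 0.758, 1.40 and 0.348 TPM in the control libraries, without overlap. The microglia sum reached 3848 TPM in obesogenic library 2, of which the complement genes C1qa, C1qb and C1qc made up 3159 TPM, against sums of 641 and 708 TPM in the other obesogenic libraries and between 723 and 1111 TPM in the control libraries. Per 100 TPM of the 7 microglia markers without those genes, Igf1 was 0.758, 0.714 and 0.878 TPM in the obesogenic and 2.26, 5.23 and 1.06 TPM in the control libraries, again without overlap. Per 100 TPM of P2ry12 alone, a receptor of resting microglia with 59.1 TPM in obesogenic library 2 and between 54.8 and 94.0 TPM in the control libraries, Igf1 was 3.09, 8.32 and 3.49 TPM in the obesogenic and 8.95, 26.3 and 4.59 TPM in the control libraries, which overlap. The non-overlap of Igf1 thus depended on which microglia markers it was set against, and these last 2 ratios were chosen after the data were seen. Per 100 TPM of 7 border macrophage markers, Igf1 was 1.92, 9 and 2.46 TPM in the obesogenic and 4.89, 8.90 and 1.69 TPM in the control libraries, which overlap. The border macrophage sum ran between 54.6 and 89.8 TPM in the obesogenic and between 149 and 172 TPM in the control libraries. What part these cells had in the Igf1 values was not tested.

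**Figure D4:**
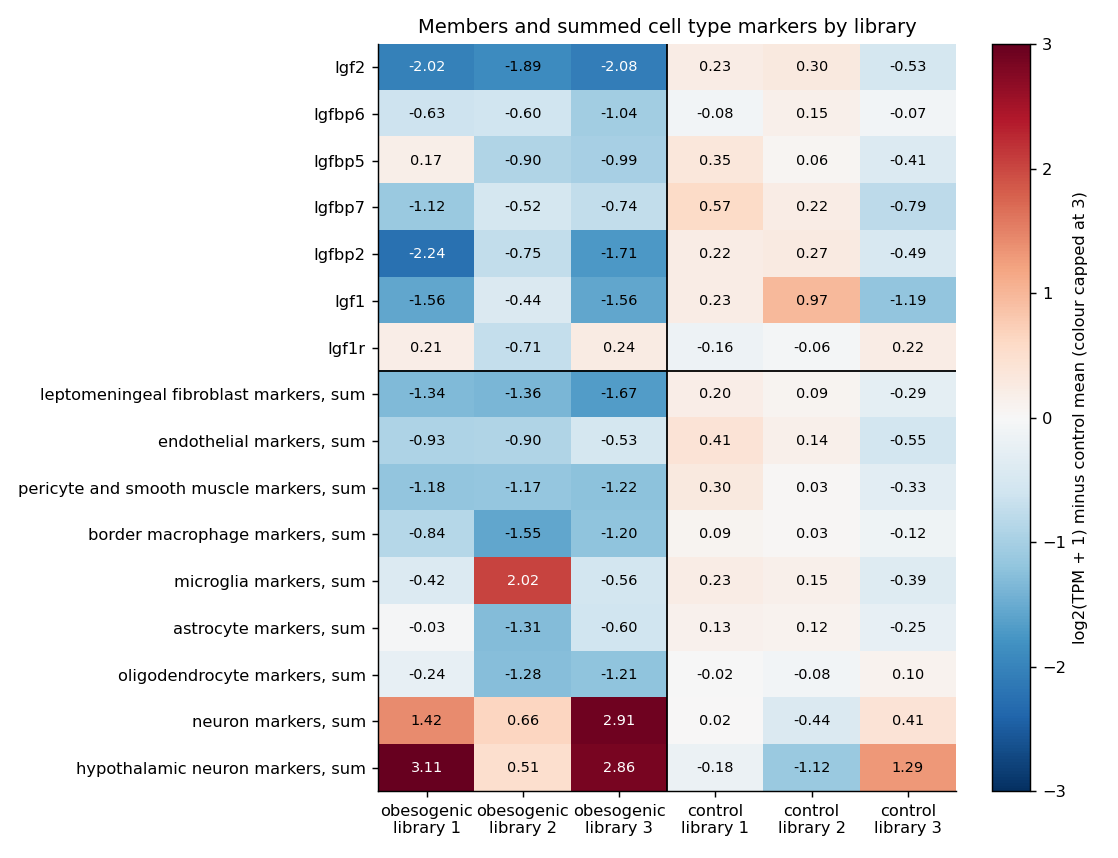
Each cell gives log2(TPM + 1) of a library minus the mean of the 3 control libraries, for 7 genes of the IGF system above the line and for summed marker lists below it, with obesogenic libraries on the left. Igf2 runs from -2.08 to -1.89 in the obesogenic libraries, beside -1.67 to -1.34 for leptomeningeal fibroblast markers, while hypothalamic neuron markers reach 3.11.

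Neural markers were compared in the same way. All 9 neuron markers had a positive difference, with a median of 1.63, and summed to 328, 193 and 925 TPM in obesogenic libraries 1 to 3 and 124, 90.0 and 163 TPM in control libraries 1 to 3. The 9 oligodendrocyte markers, mostly genes of myelin, were all lower, with a median of -0.62 and sums between 26969 and 55206 TPM in the obesogenic and between 61890 and 69886 TPM in the control libraries. Astrocyte markers had a median of -0.28, and their sums, 2909 to 7057 TPM in the obesogenic and 6071 to 7901 TPM in the control libraries, overlapped. None of these markers passed the threshold in limma. An unadjusted p under 0.05 was found for 5 neuron, 2 oligodendrocyte and 0 astrocyte markers, against 11.0% of all genes tested. The part of these markers in the IGF values was not tested.

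The genes most like Igf2 over the 6 libraries were sought among 10229 genes with a mean of at least 5 TPM, by the root mean square difference of their deviations from their own mean on the log2(TPM + 1) scale. The closest was Fmod, which encodes the collagen-binding fibromodulin, at 0.244, followed by Col1a1 (0.246), a chain of type I collagen, Fam180a (0.272), Slc13a4 (0.299), a sulphate transporter, and Aldh1a2 (0.300), which makes retinoic acid. Fmod had 153, 123 and 118 TPM in the obesogenic and 468, 449 and 330 TPM in the control libraries. Col1a1 had 77.7, 102 and 61.2 TPM in the obesogenic and 306, 277 and 180 TPM in the control libraries. Both were lower without overlap, which a choice by likeness to Igf2 largely sets in advance. Of the 5 genes, 3 are among the leptomeningeal fibroblast markers.

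For Igf1 the closest genes were Poc1a (0.338), Psmd5 (0.367), Mfap4 (0.385), Crispld2 (0.429) and Akr1b8 (0.431). Mfap4, an elastic fibre protein, had 17.8, 26.9 and 15.3 TPM in the obesogenic and 105, 109 and 19.8 TPM in the control libraries. Like Igf1 it had control library 3 near the obesogenic level, a trait that the choice by likeness favours. For Igf1r the closest genes were Anks1 (0.040), Trak1 (0.058), Slit2 (0.059), Slc37a3 (0.063) and Msl1 (0.069). Each had its lowest value in obesogenic library 2, as Igf1r did, which the choice by likeness also favours. The measure is not scaled by spread, so a gene that varies little, as Igf1r did, tends to get smaller values than Igf1.

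Around the system, 10 further IGF and insulin genes were in the table and 5 could be tested. Their differences were negative in 3 and positive in 2, with a median of -0.05 and a lowest adjusted p of 0.648 in limma, and 0 had an unadjusted p under 0.05. Igfbp1 and Ins1 were listed at 0 in every library. Igfals, the partner of Igfbp3 in blood, had 1.32, 0.869 and 0.265 TPM in the obesogenic and 1.34, 2.82 and 1.11 TPM in the control libraries. The translation regulators Igf2bp3 and Igf2bp2, which bind Igf2 mRNA, averaged 2.11 and 1.49 TPM in the obesogenic and 0.904 and 0.834 TPM in the control libraries. Igf2bp3 had 4.03 TPM in obesogenic library 2, against 1.30 and 1.00 TPM in obesogenic libraries 1 and 3. Insrr, a receptor related to that of insulin, averaged 1.96 TPM in the obesogenic and 2.76 TPM in the control libraries. All 4 of these genes overlapped between diets.

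Of 10 genes for proteases and protease inhibitors that set IGF release, 6 were tested and 4 were lower. None passed in limma, and 2 had an unadjusted p under 0.05, against 11.0% of all genes tested. Mmp2, a matrix metalloproteinase, had 16.6, 21.6 and 12.1 TPM in the obesogenic and 49.3, 38.3 and 27.6 TPM in the control libraries, with a log2 difference of -1.15 and a standard error of 0.30 (adjusted p = 0.283 with limma). Htra3, a secreted serine protease, had 93.7, 80.5 and 50.2 TPM in the obesogenic and 176, 155 and 110 TPM in the control libraries, with -0.99 and a standard error of 0.29 (adjusted p = 0.33). Both were lower without overlap. Ctsd, a lysosomal protease, had 644, 1444 and 622 TPM in the obesogenic and 658, 683 and 602 TPM in the control libraries. Its higher obesogenic mean, 903 against 648 TPM, rested on obesogenic library 2. Stc1, which inhibits PAPP-A, averaged 1.07 TPM in the obesogenic and 0.765 TPM in the control libraries. Both Ctsd and Stc1 overlapped.

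All 6 genes of growth hormone input were tested, with a median of 0.38 and 5 of 6 higher. None of the 6 passed in limma, and 0 had an unadjusted p under 0.05. Over all 14364 genes tested, the median was 0.08, 42.3% had a negative difference and 1276 were higher without overlap. Cish, a feedback inhibitor that STAT5 induces, had 3.40, 8.62 and 4.85 TPM in the obesogenic and 2.81, 3.12 and 1.88 TPM in the control libraries, higher without overlap (log2 difference 0.82, adjusted p = 0.494 with limma). Socs2, another STAT5 target, had 16.8, 9.71 and 14.8 TPM in the obesogenic and 16.8, 1.99 and 2.74 TPM in the control libraries, which overlap. Stat5b averaged 44.3 TPM in the obesogenic and 30.4 TPM in the control libraries, and Jak2, the kinase on the growth hormone receptor, averaged 37.5 TPM in the obesogenic and 31.3 TPM in the control libraries. Both overlapped.

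All 28 genes of signalling below the receptor were tested, with a median of 0.13, 21 higher and 7 lower. None passed in limma, and 5 had an unadjusted p under 0.05. Over all genes tested, 42.3% had a negative difference and 11.0% had an unadjusted p under 0.05. Irs4, a receptor substrate found in hypothalamus, had 24.4, 3.93 and 43.8 TPM in the obesogenic and 1.14, 0.112 and 0.684 TPM in the control libraries, a log2 difference of 3.48 with a standard error of 0.78 (adjusted p = 0.236 with limma). Its highest libraries, obesogenic 1 and 3, were those with the most hypothalamic neuropeptide RNA, and the part of that RNA in the Irs4 value was not tested. The adaptor Shc1 averaged 55.4 TPM in the obesogenic and 91.5 TPM in the control libraries, and the kinase Akt2 averaged 30.1 TPM in the obesogenic and 47.2 TPM in the control libraries, both lower without overlap. Grb14, which inhibits insulin and IGF receptors, averaged 52.6 TPM in the obesogenic and 90.3 TPM in the control libraries and overlapped.

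FOXO transcription factors are held out of the nucleus by AKT, and 16 of their known targets were all tested, 10 lower and 6 higher with a median of -0.02. None passed in limma, and 1 had an unadjusted p under 0.05, a share below the 11.0% of all genes tested. Trim63, a muscle ubiquitin ligase, had 3.38, 2.05 and 2.62 TPM in the obesogenic and 7.60, 5.74 and 6.15 TPM in the control libraries, lower without overlap (log2 difference -1.03, adjusted p = 0.327 with limma). Skeletal muscle markers summed to between 4.40 and 18.4 TPM in the obesogenic and between 11.4 and 34.1 TPM in the control libraries, and their part in the Trim63 value was not tested. Txnip, Fbxo32 and Sesn1 averaged 53.7, 7.64 and 64.4 TPM in the obesogenic and 76.2, 10.5 and 77.7 TPM in the control libraries, and each overlapped.

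On the mannose 6-phosphate route that IGF2R serves, all 15 genes were tested, 11 higher and 4 lower with a median of 0.15. None passed in limma, and 1 had an unadjusted p under 0.05, a share below the 11.0% of all genes tested. Over all genes tested, 42.3% had a negative difference. The lysosomal protease Ctsl had 251, 272 and 255 TPM in the obesogenic and 331, 374 and 319 TPM in the control libraries, lower without overlap (log2 difference -0.39, adjusted p = 0.446 with limma). The sorting adaptor Gga2 had 27.3, 31.1 and 32.5 TPM in the obesogenic and 21.7, 23.1 and 21.9 TPM in the control libraries, higher without overlap (log2 difference 0.43, adjusted p = 0.468). Gaa and Ctsb, both lysosomal enzymes, averaged 278 and 948 TPM in the obesogenic and 118 and 695 TPM in the control libraries and overlapped. By library, Ctsb had 747, 1364 and 733 TPM in the obesogenic and 673, 741 and 671 TPM in the control libraries.

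Of the genes that share imprinted neighbourhoods with Igf2 and Igf2r, 3 were tested. None passed in limma and 1 had an unadjusted p under 0.05, against 11.0% of all genes tested. H19, Igf2os and Airn were not analysed here. Slc22a2, an organic cation transporter beside Igf2r, had 7.83, 5.81 and 5.72 TPM in the obesogenic and 13.8, 26.3 and 17.8 TPM in the control libraries, lower without overlap, with a log2 difference of -1.41 and a standard error of 0.31 (adjusted p = 0.233 with limma). Slc22a3, next to it, averaged 1.69 TPM in the obesogenic and 1.44 TPM in the control libraries, and Mrpl23, near Igf2, averaged 6.31 TPM in the obesogenic and 6.88 TPM in the control libraries. Both overlapped between diets.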

How the data were processed

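The authors deposited transcript abundances in TPM from poly(A) RNA of 6 optic nerve libraries. Per the labels' protocols, the SMART-Seq mRNA kit was used on RNA from NucleoSpin RNA Plus XS columns. STAR 2.7.9a, featureCounts 2.0.3, Subread and DRAGEN appear in the submitters' processing notes, with no role stated and with build, annotation and strand setting not given in the sources used here. Of 110028 lines, 109383 transcripts remained after repeats were dropped, and 35 belonged to the IGF system. GENCODE release M21 annotates 42 there, so levels of genes with unlisted isoforms are partial. The 14364 genes that reached 1 TPM in 3 or more of 6 libraries were fitted on the log2(TPM + 1) scale. The fit used limma 3.58.1 (lmFit, eBayes with trend; R 4.3.3), two-sided, adjusted over all genes; the scale understates changes of low genes. The fit was tested on simulated data. The members, gene lists and tests were chosen with earlier results of these data known. All members are named, with up to 4 genes of smallest unadjusted p per pathway list, the 5 genes most like Igf1, Igf2 and Igf1r (Igf2r was not tested), and Nf1; markers and 3 tested imprinted neighbours are given by list. Promoters were read from RefSeq (GRCm38.p6) with Python 3.11.15, matching a transcript to a start within 100 bases, and figures were drawn with matplotlib 3.10.9. Alternatives covered the pseudocount, filter, scaling, sample number as a block, array weights, eBayes settings, transcript choice and each library left out.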

Additional observations from a re-analysis of the deposited data

How the results depend on the processing

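The direction of the 8 members other than Igf1r held under each alternative that gave a value, apart from Igfbp5 at 0.01 with array weights; Igfbp3 gave none with a mean of at least 5 TPM, which it did not reach; no member passed except with array weights or without obesogenic library 2. With array weights, 2064 of the 14364 genes tested passed, 559 of them lower and 1505 higher. The 4 members that passed were all lower, Igf2 at -2.06, Igfbp2 at -2.18, Igfbp6 at -0.67 and Igfbp7 at -1.12, and Igf1r was 0.20. Igf1r was also positive after rescaling without immunoglobulin genes (0.0015), without obesogenic library 2 (0.23) and without control library 3 (0.02); the cause was not tested. Leaving out each library in turn gave Igf2 between -2.26 and -1.85 (adjusted p 0.0199 to 0.697), Igfbp2 between -1.98 and -1.23, Igfbp6 between -0.83 and -0.61 and Igf1r between -0.25 and 0.23. The ranges of the other members were Igf1 between -1.79 and -0.71, Igfbp3 between 0.15 and 0.66, Igfbp4 between -1.02 and -0.30, Igfbp5 between -0.94 and -0.36 and Igfbp7 between -1.19 and -0.50. These fits called 0 to 914 genes and 0 to 3 members; the 914, 735 of them higher, came without obesogenic library 2. No gene passed without a filter, with a mean of at least 5 TPM, or with coding transcripts alone, and 193 passed without obesogenic libraries 1 and 3, a choice made after seeing the data. Whether the sample numbers pair libraries is not stated in the labels and cannot be told from these values. The sample descriptions carry the submitters' own codes, which number the libraries differently and match between diets for sample number 1 alone. Correlations of same-numbered deviations were 0.00787, 0.177 and 0.132, and those of differently numbered libraries ran from -0.169 to 0.107. With the number as a block in limma, 1 gene and 0 members passed and Igf2 had -2.00 (adjusted p = 0.139). The median log2 difference of all genes was 0.08 as deposited, -0.03 after quantile normalization and 0.17 after rescaling without immunoglobulin genes. Depth is unknown, so no limit from counting can be given.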
